A study of Mus musculus with 18 samples.

Results

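The 9 genes described here mark T cells (Cd2, Cd3e and Cd3g), cytotoxic T cells and natural killer (NK) cells (Gzma and Nkg7) and B cells (Igkc, Cd79a, Cd79b and Ms4a1). They were taken by gene symbol from the 57010 genes of the count table, and all 9 were found. They were measured in RNA of isolated mouse brain endothelial cells, so any lymphocyte transcript in it sits beside a large excess of endothelial RNA. The 18 libraries fall into 4 groups at postnatal day 57. The KO mice carried Slco1c1-iCreERT2, a tamoxifen-dependent Cre for brain endothelium, together with Pdcd10 fl/fl and Aldh1l1-EGFP/Rpl10a. The flox mice were littermates with Pdcd10 fl/fl and Aldh1l1-EGFP/Rpl10a but no Cre, and the stated treatment was 50 µg of 4-hydroxytamoxifen on postnatal day 1. The design text also names uninjected Cre carriers as controls without saying whether any library came from them. Hypoxia was 12% oxygen for 7 days and normoxia was 21% oxygen, with 5 hypoxia KO, 4 hypoxia flox, 5 normoxia KO and 4 normoxia flox libraries. The comparisons ask how the lymphocyte transcripts differ with loss of Pdcd10, the gene of cerebral cavernous malformation type 3 protein (CCM3), and with low oxygen.

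The T cell receptor signals through the CD3 chains, of which Cd3e and Cd3g encode CD3 epsilon and CD3 gamma, and Cd2 encodes an adhesion and costimulatory receptor of T and NK cells. Gzma encodes granzyme A, a serine protease of cytotoxic granules, and Nkg7 encodes a membrane protein of the same granules. In B cells the receptor is an immunoglobulin of heavy and light chains that signals through CD79a (Ig-alpha) and CD79b (Ig-beta). Igkc is the constant region of the kappa light chain, made by B cells and, in far larger amounts per cell, by plasma cells. Ms4a1 encodes CD20, which B cells carry and plasma cells lose. The healthy brain parenchyma holds few lymphocytes, while the blood, the meninges and the perivascular spaces hold more.

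Promoter windows (250 bases before to 50 after the annotated start) were matched for 5 of the 9 genes, Cd3e, Cd3g, Gzma, Nkg7 and Cd79a, in RefSeq sequence of build GRCm38.p6, which is not the build of the counts. One window is shown per cell class, that with the most motif matches in its class, because genes of all 3 classes were higher in KO libraries. Capitals mark matches on either strand to the letters AGGAAG (an ETS-type motif) or TGTGGT (a RUNX-type motif); both families of factors act in lymphocytes. Among 32817 windows of the same length, 35.4% hold AGGAAG and 16.8% hold TGTGGT, so a match is common. The Cd79a window lies at chr7:24897247-24897546 on the plus strand, the Cd3e window at chr9:45009562-45009861 on the minus strand, and the Nkg7 window at chr7:43436888-43437187 on the plus strand.
Cd79a: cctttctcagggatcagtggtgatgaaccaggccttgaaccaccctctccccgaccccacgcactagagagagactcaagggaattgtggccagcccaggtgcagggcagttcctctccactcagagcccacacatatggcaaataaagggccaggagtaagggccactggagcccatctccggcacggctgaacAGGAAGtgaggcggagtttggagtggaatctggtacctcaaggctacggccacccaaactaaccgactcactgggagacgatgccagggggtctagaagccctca
Cd3e: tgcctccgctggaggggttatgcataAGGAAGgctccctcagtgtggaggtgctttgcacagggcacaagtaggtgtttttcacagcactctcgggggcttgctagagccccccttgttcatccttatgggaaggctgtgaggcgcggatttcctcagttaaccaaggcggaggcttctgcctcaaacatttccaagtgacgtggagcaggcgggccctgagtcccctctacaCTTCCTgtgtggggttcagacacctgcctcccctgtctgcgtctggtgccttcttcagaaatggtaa
Nkg7: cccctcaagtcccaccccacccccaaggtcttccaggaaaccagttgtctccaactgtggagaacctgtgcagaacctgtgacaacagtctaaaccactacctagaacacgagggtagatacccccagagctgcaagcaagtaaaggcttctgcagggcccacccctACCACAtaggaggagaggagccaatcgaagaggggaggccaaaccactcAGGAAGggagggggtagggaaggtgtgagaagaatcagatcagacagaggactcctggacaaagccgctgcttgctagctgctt
Cd79a has 1 ETS-type match, Cd3e has 2 and Nkg7 has 1 beside 1 RUNX-type match. The letters alone do not show binding, and no factor was measured at these windows.

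Total counts were 17.9 to 31.2 M per library, and the endothelial genes Pecam1 (1032 to 2007 CPM, counts scaled to the same total in each library) and Cldn5 (1313 to 2407 CPM) were abundant in all 18. Pdcd10, the targeted gene, was at 16.3 to 25.3 CPM in KO libraries and 30.6 to 60.9 CPM in flox libraries, with no overlap. Some libraries stand apart. Normoxia KO 4 and normoxia flox 4 carried neuronal RNA, with Syt1, a synaptic vesicle gene, at 471 and 838 CPM and at most 8.68 CPM elsewhere. Normoxia KO 4 and normoxia flox 3 and 4 had both Xist (246 to 478 CPM) and the Y-linked gene Ddx3y (9.68 to 83.4 CPM), a pair that cells of a single sex do not carry together. All 4 hypoxia flox libraries had a male pattern, against 1 of the 5 hypoxia KO libraries, so sex and genotype are largely confounded in hypoxia. Fos, an immediate early gene, was at 3088 to 5734 CPM in hypoxia KO 2 to 5, hypoxia flox 2, normoxia KO 1, 2 and 5 and normoxia flox 1, and at 221 to 1326 CPM in the other 9. High Fos thus held in 4 of 5 hypoxia KO and 1 of 4 hypoxia flox libraries. In normoxia it held in 3 of 5 KO and 1 of 4 flox libraries, so Fos and genotype are partly confounded. The labels do not say that the libraries came from separate mice, so p-values measure the spread between these libraries, which may be technical.

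Together the 9 genes took 17.3 to 38.4 CPM of the raw totals in hypoxia KO libraries, 3.05 to 11.5 in hypoxia flox, 9.04 to 24.2 in normoxia KO and 3.38 to 8.43 in normoxia flox. Per gene length the order was led by Igkc, with a mean deposited RPKM (reads scaled by depth and gene length) of 21.5 in hypoxia KO, 4.70 in hypoxia flox, 13.5 in normoxia KO and 4.10 in normoxia flox. Cd79a followed in all 4 groups, at 3.22, 1.25, 2.32 and 0.800 RPKM in the same order. Cd3e, Cd3g and Ms4a1 were at or below 0.6 RPKM in every library, where the single deposited decimal separates few values. 8 of the 9 genes passed the filter on low counts, which 17531 genes passed. Cd3e did not, having 95 counts in all 18 libraries. Cd3g passed through hypoxia KO 2 to 5 alone, and Nkg7 through KO libraries alone. Gzma, Cd79b and Ms4a1 reached the filter's level in some flox libraries, but in too few to pass without KO libraries. Each change is given on the log2 scale with its SE, from edgeR's quasi-likelihood test on all 18 libraries, with p adjusted by Benjamini-Hochberg over the 17531 genes. In bulk RNA, more cells of a type and more RNA per cell cannot be told apart.

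**Figure D1:**
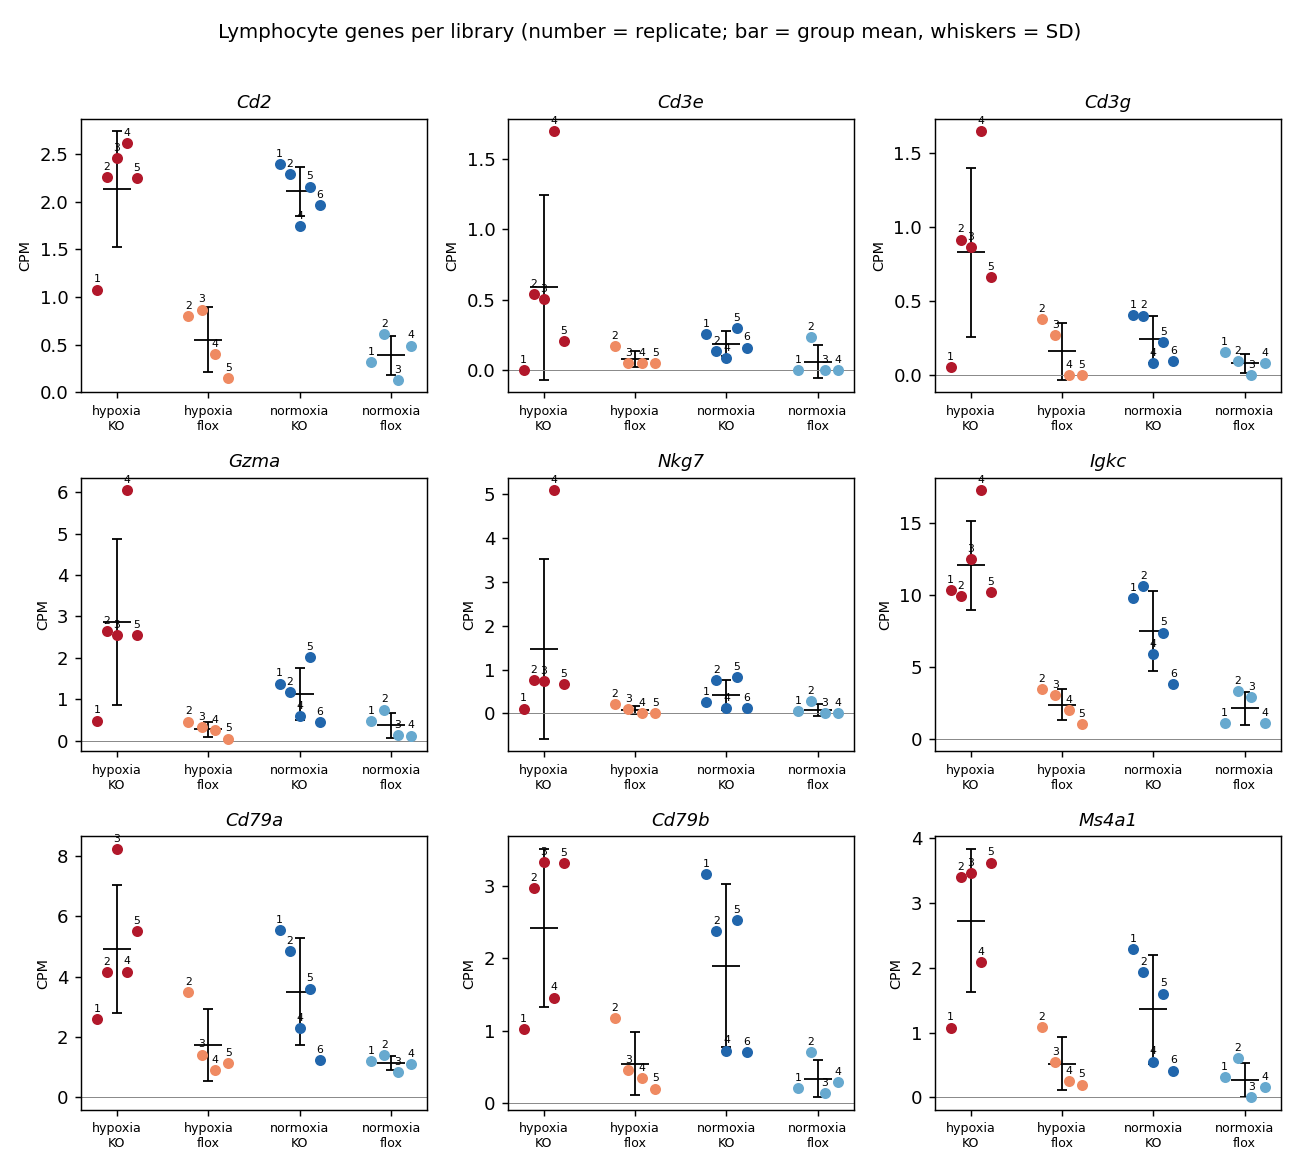
CPM of the 9 genes in each library (points, numbered by replicate) with the group mean (bar) and SD (whiskers), for hypoxia KO (n = 5), hypoxia flox (n = 4), normoxia KO (n = 5) and normoxia flox (n = 4). Cd2 and Igkc separate KO from flox in both oxygen conditions, Nkg7 reaches 5.09 CPM in hypoxia KO 4, and hypoxia KO 1 is the lowest hypoxia KO library for 8 of the 9 genes, Igkc being the exception.

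In hypoxia all 8 tested genes rose in KO relative to flox libraries, while 11.4% of all tested genes rose in this comparison. For Cd3g and Nkg7, among these 8, only KO libraries reached the level the filter asks for. Gzma, Cd79b and Ms4a1 reached it in some flox libraries, but too few to pass without KO libraries. The rise of Cd3g, Nkg7, Gzma, Cd79b and Ms4a1 in KO is thus not independent of the filter. The median log2 fold change of the 8 was 2.29, beside -0.0021 over all tested genes. In normoxia 5 of the 8 rose (Cd2, Igkc, Cd79a, Cd79b and Ms4a1), while 9.54% of all tested genes rose, and the median of the 8 was 2.06 beside -0.02 over all genes. None fell in either comparison. With no filter on low counts, 9 of 9 rose in hypoxia and 3 of 9 in normoxia. Without hypoxia flox 4 or hypoxia flox 5, 5 of the 8 passed in hypoxia. Without normoxia flox 3, 2 of the 8 passed in normoxia, and without normoxia flox 1 or 4 or normoxia KO 1, 2 or 5, 3 did. Every KO library was above every flox library for 3 of the 8 in hypoxia (Cd2, Gzma and Igkc), as for 12% of all tested genes, and for 2 of the 8 in normoxia (Cd2 and Igkc), as for 8.59% of all tested genes.

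Of the T cell genes, Cd2 had 1.08, 2.26, 2.46, 2.62 and 2.24 CPM in hypoxia KO 1 to 5, and 0.796, 0.867, 0.396 and 0.147 CPM in hypoxia flox 2 to 5. Normoxia values were 2.39, 2.29, 1.74, 2.16 and 1.97 CPM in KO 1, 2, 4, 5 and 6, and 0.313, 0.609, 0.130 and 0.489 CPM in flox 1 to 4. The groups did not overlap in either condition, and the normoxia KO libraries lay close together. Cd2 rose by 1.92 ± 0.38 in hypoxia (adjusted p = 0.0019) and by 2.43 ± 0.40 in normoxia (adjusted p = 0.00042).

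Cd3g had 0.0539, 0.916, 0.865, 1.65 and 0.663 CPM in hypoxia KO 1 to 5, and 0.377, 0.274, 0 and 0 CPM in hypoxia flox 2 to 5. Hypoxia KO 1, with 1 count, lay among the flox libraries, and the other 4 KO libraries lay above them. In normoxia KO libraries Cd3g had 2 to 9 counts (0.0849 to 0.408 CPM), and in normoxia flox libraries 0 to 3 counts (0 to 0.157 CPM), with overlap. Cd3g rose by 2.25 ± 0.71 in hypoxia (adjusted p = 0.028), and this call was lost without hypoxia KO 2 or 4 or hypoxia flox 4 or 5 (adjusted p of 0.0506 to 0.0950). In normoxia its value was 1.46 ± 1.00 (adjusted p = 0.371).

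Cd3e had 0, 10, 11, 35 and 4 counts in hypoxia KO 1 to 5, and 4, 1, 1 and 1 counts in hypoxia flox 2 to 5. Normoxia counts were 5, 3, 2, 8 and 5 counts in KO 1, 2, 4, 5 and 6, and 0, 5, 0 and 0 counts in flox 1 to 4. Of its 95 counts in all, 35 came from hypoxia KO 4. Without the filter on low counts its edgeR value was 2.82 ± 0.88 in hypoxia (adjusted p = 0.0451) and 1.61 ± 1.13 in normoxia (adjusted p = 0.567).

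Of the cytotoxic genes, Gzma had 0.485, 2.64, 2.55, 6.06 and 2.55 CPM in hypoxia KO 1 to 5, and 0.461, 0.319, 0.248 and 0.0490 CPM in hypoxia flox 2 to 5. The groups did not overlap, though hypoxia KO 1 stood next to the highest flox library. In normoxia it had 0.444 to 2.01 CPM in KO libraries and 0.122 to 0.750 CPM in flox libraries, with KO 4 and 6 inside the flox range. Gzma rose by 3.35 ± 0.71 in hypoxia (adjusted p = 0.0031). In normoxia its value was 1.62 ± 0.72 (adjusted p = 0.146).

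Nkg7 had 0.108, 0.754, 0.729, 5.09 and 0.663 CPM in hypoxia KO 1 to 5, and 0.210, 0.0912, 0 and 0 CPM in hypoxia flox 2 to 5. Hypoxia KO 4 held 105 of the 150 Nkg7 counts of its group, and hypoxia KO 1 lay inside the flox range. Nkg7 rose by 4.11 ± 1.08 in hypoxia (adjusted p = 0.0089), the largest change of the 8, but by 2.74 ± 0.95 without hypoxia KO 4, a value that did not pass (adjusted p = 0.0539). The normoxia values were 0.127 to 0.819 CPM in KO libraries and 0 to 0.281 CPM in flox libraries, with a value of 2.30 ± 1.28 (adjusted p = 0.249).

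Of the B cell genes, Igkc had 10.3, 9.91, 12.5, 17.3 and 10.2 CPM in hypoxia KO 1 to 5, and 3.44, 3.01, 1.98 and 1.03 CPM in hypoxia flox 2 to 5. In normoxia it had 9.78, 10.6, 5.86, 7.37 and 3.81 CPM in KO 1, 2, 4, 5 and 6, and 1.10, 3.28, 2.91 and 1.10 CPM in flox 1 to 4. KO and flox libraries did not overlap in either condition, although normoxia KO 6 was close to normoxia flox 2. Igkc rose by 2.34 ± 0.40 in hypoxia (adjusted p = 0.00064) and by 1.82 ± 0.40 in normoxia (adjusted p = 0.0046).

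Cd79a had 2.59, 4.15, 8.24, 4.17 and 5.51 CPM in hypoxia KO 1 to 5, and 3.48, 1.41, 0.891 and 1.13 CPM in hypoxia flox 2 to 5. Its normoxia values were 5.55, 4.84, 2.29, 3.61 and 1.24 CPM in KO 1, 2, 4, 5 and 6, and 1.20, 1.41, 0.825 and 1.10 CPM in flox 1 to 4. The overlap was due to hypoxia KO 1 and hypoxia flox 2 in hypoxia and to normoxia KO 6 in normoxia. Cd79a rose by 1.50 ± 0.46 in hypoxia (adjusted p = 0.0274) and by 1.61 ± 0.48 in normoxia (adjusted p = 0.0309), and each call was lost in several of the fits that left out 1 library (adjusted p up to 0.0923 in hypoxia and 0.0979 in normoxia).

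Cd79b, the partner chain of Cd79a, had 1.02, 2.96, 3.33, 1.45 and 3.32 CPM in hypoxia KO 1 to 5, and 1.17, 0.456, 0.347 and 0.196 CPM in hypoxia flox 2 to 5. In normoxia it had 3.16, 2.38, 0.722, 2.53 and 0.698 CPM in KO 1, 2, 4, 5 and 6, and 0.209, 0.703, 0.130 and 0.285 CPM in flox 1 to 4. Normoxia KO 4 and 6 thus stood level with normoxia flox 2, while KO 1, 2 and 5 were far above it. Cd79b rose by 2.11 ± 0.59 in hypoxia (adjusted p = 0.0178) and by 2.48 ± 0.65 in normoxia (adjusted p = 0.0153). Without hypoxia flox 4 or 5, or without normoxia flox 3, the call in that condition was lost (adjusted p of 0.0591, 0.0629 and 0.0593).

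Ms4a1 had 1.08, 3.39, 3.46, 2.08 and 3.62 CPM in hypoxia KO 1 to 5, and 1.09, 0.547, 0.248 and 0.196 CPM in hypoxia flox 2 to 5. In normoxia it had 2.29, 1.93, 0.552, 1.60 and 0.412 CPM in KO 1, 2, 4, 5 and 6, and 0.313, 0.609, 0 and 0.163 CPM in flox 1 to 4. Hypoxia KO 1 and normoxia KO 4 and 6 lay inside the flox ranges, and the other KO libraries lay above them. Ms4a1 rose by 2.34 ± 0.61 in hypoxia (adjusted p = 0.0119) and by 2.30 ± 0.73 in normoxia (adjusted p = 0.0391), the normoxia call being lost in 7 of the 18 fits that each left out 1 library.

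**Figure D2:**
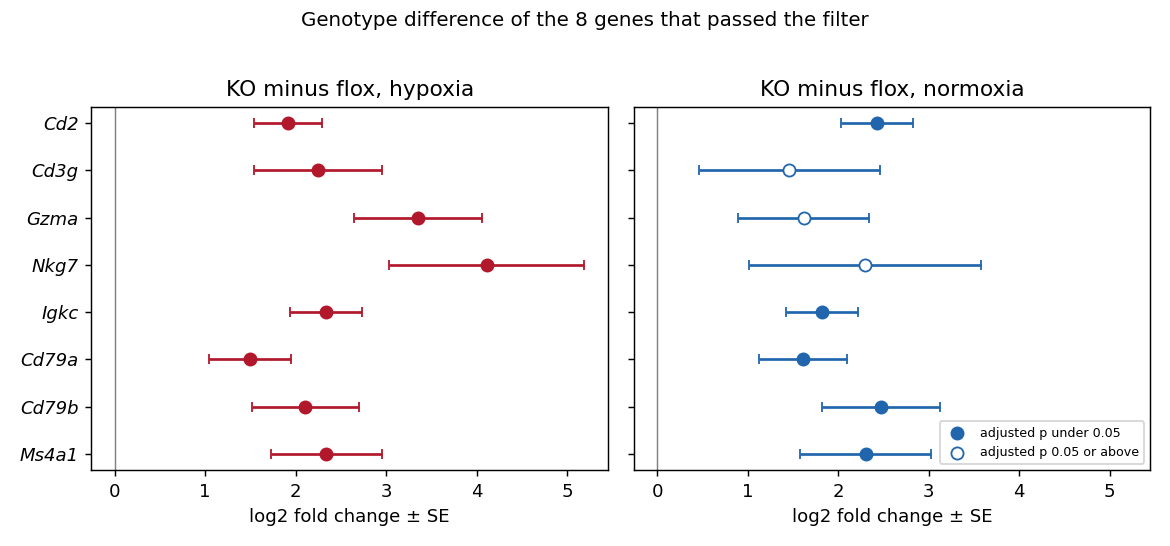
Log2 fold change (KO minus flox) ± SE of the 8 tested genes, in hypoxia (left) and normoxia (right); filled points have an adjusted p under 0.05. All 8 lie above 0 on both sides, from 1.50 to 4.11 in hypoxia and from 1.46 to 2.48 in normoxia, and the open points in normoxia are Cd3g, Gzma and Nkg7.

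With normoxia replicate pairs 1, 2 and 4 as a block 2 of the 8 genes rose in normoxia, Cd2 and Igkc, instead of 5. That fit also leaves out normoxia KO 5 and 6 and normoxia flox 3, and the count was likewise 2 without normoxia flox 3 alone, while the replicate block over all groups and libraries kept the count at 5. Beyond this, 2 measures moved with these genes. The first was Ptprc, the CD45 gene of all leukocytes, at 5.87 to 49.6 CPM in hypoxia KO, 1.42 to 8.30 in hypoxia flox, 2.67 to 18.6 in normoxia KO and 0.608 to 6.66 in normoxia flox. Ptprc rose by 2.72 ± 0.79 in hypoxia (adjusted p = 0.0219), and its normoxia value was 1.68 ± 0.77 (adjusted p = 0.164). With a score of 11 pan-leukocyte genes as a covariate, none of the 8 genes passed in hypoxia and 1 in normoxia, Cd2 at 1.77 ± 0.32 (adjusted p = 0.0016). The medians of the 8 were then 0.23 in hypoxia and 0.80 in normoxia. The second measure was the immediate early genes. With their score as a covariate, 5 of the 8 passed in hypoxia (Cd2, Gzma, Igkc, Cd79b and Ms4a1) and 5 in normoxia, with medians of 1.42 and 1.47. With the sex signal as a covariate, 7 passed in hypoxia, Cd79b being lost (adjusted p = 0.0749), and 5 in normoxia. Without the 3 libraries that held both Xist and Y-linked counts, 2 passed in normoxia.

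Set against Ptprc, KO and flox libraries overlapped. The sum of Cd79a, Cd79b and Ms4a1 per Ptprc CPM was 0.155 to 0.798 in hypoxia KO and 0.525 to 1.07 in hypoxia flox, and 0.493 to 1.33 in normoxia KO and 0.408 to 1.57 in normoxia flox. The sum of Cd3e and Cd3g per Ptprc CPM was 0.00917 to 0.0674 in hypoxia KO, 0.0345 to 0.0693 in hypoxia flox, 0.0290 to 0.0816 in normoxia KO and 0 to 0.0493 in normoxia flox. Hypoxia KO 4, the library with the most Ptprc, had the lowest B cell ratio (0.155), and hypoxia KO 1 had the lowest Cd3 ratio of any library with a Cd3 count (0.00917, on 1 count).

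Cd2 per Ptprc CPM overlapped in hypoxia, at 0.0527 to 0.183 in KO and 0.0960 to 0.276 in flox. In normoxia it was 0.123 to 0.651 in KO and 0.0915 to 0.214 in flox, and the KO values above the flox range were those of KO 4 and 6. Cd2 was 1.74 and 1.97 CPM in normoxia KO 4 and 6, in which Ptprc was 2.67 and 3.11 CPM, no higher than in normoxia flox 1, 2 and 4 (3.24 to 6.66 CPM), where Cd2 was 0.313 to 0.609 CPM. Cd2 had 41 and 62 counts in normoxia KO 4 and 6 and 20 counts in hypoxia KO 1, beside 4, 8 and 1 counts of Cd3e and Cd3g together. In the other 7 KO libraries Cd2 was 0.783 to 4.25 times the summed CPM of Cd3e and Cd3g. Summed over each flox group, Cd2 had 49 counts beside 22 of Cd3e and Cd3g in hypoxia, and 34 beside 12 in normoxia.

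**Figure D3:**
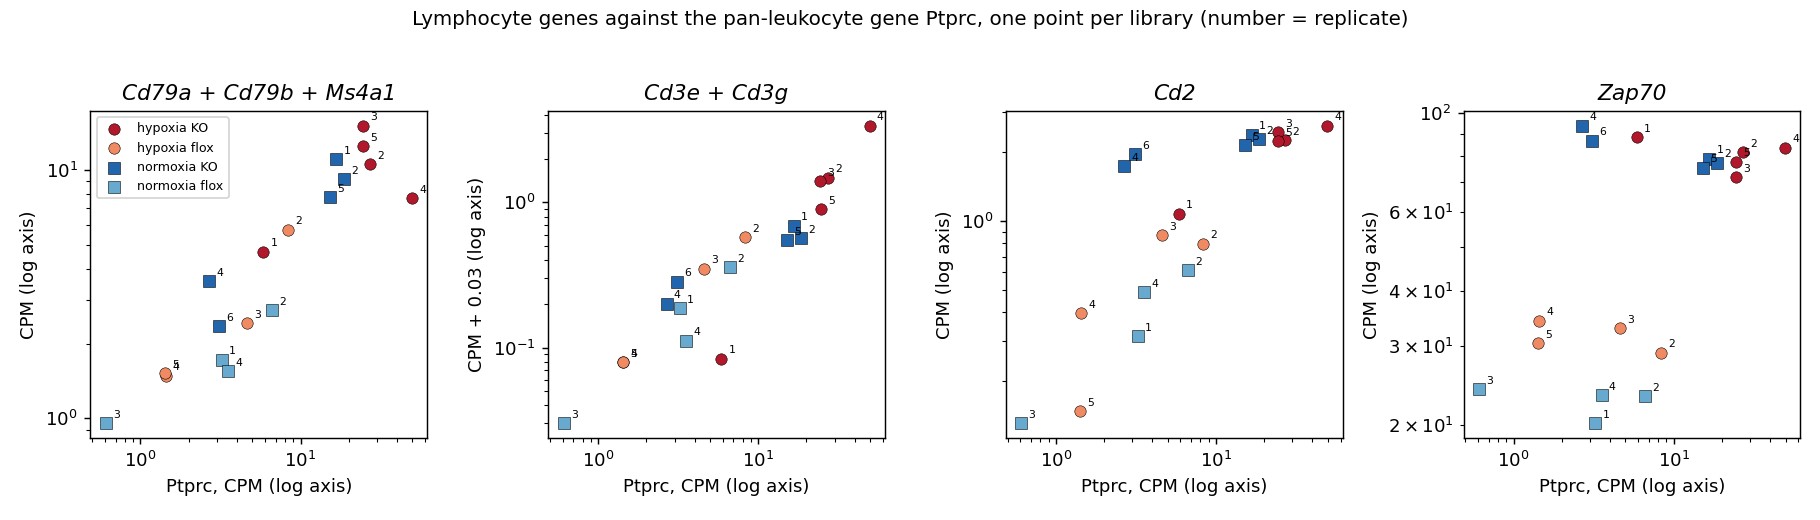
Summed CPM of Cd79a, Cd79b and Ms4a1, summed CPM of Cd3e and Cd3g (plus 0.03, since 1 library is at 0), CPM of Cd2 and CPM of Zap70 against CPM of Ptprc, all on log axes, 1 point per library numbered by replicate. The B cell and Cd3 sums climb with Ptprc across the 4 groups, and Cd2 is near 2 CPM in normoxia KO 4 and 6 despite Ptprc near 3 CPM. Zap70 is higher in all KO than in all flox libraries, and among flox libraries it is higher in hypoxia than in normoxia.

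Within the groups, the B cell receptor genes and Ms4a1 varied most closely together. Over the 18 libraries, the deviations of log2 CPM from the group means correlated at r of 0.85 to 0.93 among Cd79a, Cd79b and Ms4a1 (3 pairs) and at 0.70 to 0.89 among Cd3e, Cd3g, Gzma and Nkg7 (6 pairs). Between those sets r was 0.41 to 0.76 (12 pairs). The ranges overlap, since Cd3g with Ms4a1 (0.76) was above Cd3e with Cd3g (0.70). Cd2 did not sort with either set, at 0.56 to 0.79 with the Cd3 genes and 0.55 to 0.75 with Cd79a, Cd79b and Ms4a1. Igkc was less tied to the other B cell genes, at 0.44 to 0.54, than to Nkg7 (0.59) or Gzma (0.57). Genes of 1 library share its depth and composition, and these values are a description. Hypoxia KO 4 was the highest of the 18 libraries for Cd3e, Cd3g, Gzma and Nkg7 and also for Igkc, whereas hypoxia KO 3 was the highest for Cd79a and Cd79b, and hypoxia KO 4 had 1.45 CPM of Cd79b.

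The genes most like the mean log2 CPM of Cd2, Cd3e and Cd3g, out of 12447 genes over 18 libraries, were Itgal (r = 0.96), H2-Aa and Cd74 (0.95 each), Cytip, Cybb, Lsp1 and Spn (0.95 each) and Ptprc (0.94). Itgal encodes the alpha chain of the leukocyte integrin LFA-1, H2-Aa and Cd74 belong to major histocompatibility class II presentation, and Cybb encodes the phagocyte oxidase subunit, so the list is not one of T cell genes alone. Among the genes most like the mean of Cd79a, Cd79b and Ms4a1 were Ighd (0.98), Btla and Cd22 (0.96 each), Pax5 and Sema4c (0.95 each) and Myo1g (0.94). Ighd is the heavy chain of IgD on naive B cells, Cd22 is a B cell surface receptor, and Pax5 is the transcription factor that maintains B cell identity.

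Igkc can come from B cells or from plasma cells, and the heavy chain genes differed between libraries. Igha, the heavy chain of IgA, had 16.1, 6.47, 7.01, 7.13 and 6.48 CPM in hypoxia KO 1 to 5, and 0.922, 3.42, 2.18 and 0.931 CPM in hypoxia flox 2 to 5. It rose by 2.21 ± 0.56 in hypoxia (adjusted p = 0.0099). In normoxia Igha had 4.47 to 13.3 CPM in KO and 0.418 to 5.21 CPM in flox libraries, with overlap. There it did not pass in the main fit, though it did in 9 of 35 alternatives. Hypoxia KO 1, the lowest of its group in the 8 members other than Igkc, had the most Igha of all libraries, and with 3.99 CPM also the most Jchain, the joining chain of secreted IgA and IgM. The Ighm level of hypoxia KO 1 (the heavy chain of IgM) was 3.99 CPM, against 11.9 to 21.7 CPM in hypoxia KO 2 to 5. Normoxia KO 2 came close in Igha (13.3 CPM) and Jchain (3.86 CPM), but with 14.2 CPM of Ighm and 1.93 CPM of Ms4a1. High Igha and Jchain were thus not particular to a library low in B cell genes. Hypoxia KO 4 was the only library with more than 2 CPM of Ighg2b (7.80 CPM) or Ighg2c (5.09 CPM), heavy chains of IgG2 classes, whose near-identical sequences may share reads. Within the groups Igkc correlated with Igha at r = 0.52 and, to a like degree, with Ighd, the IgD heavy chain, at 0.53, while Igha and Ptprc correlated at -0.26. Jchain, Ighm, Ighg2b and Ighg2c were chosen after their values were seen.

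**Figure D4:**
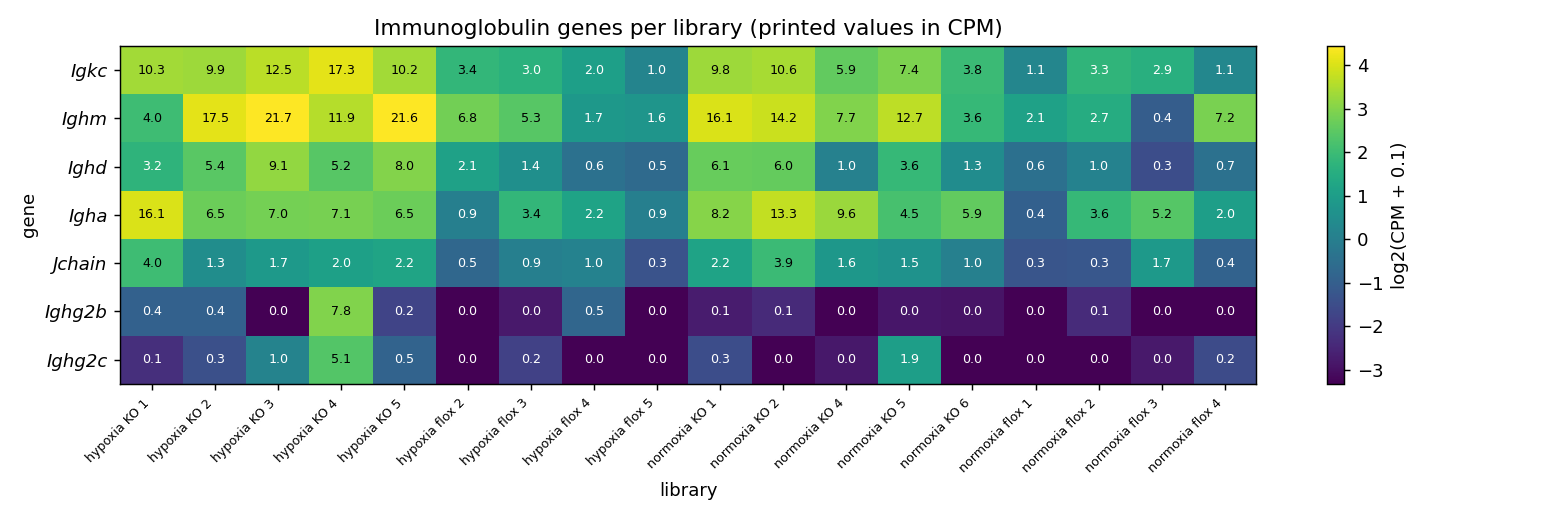
Igkc and the immunoglobulin heavy chain and joining chain genes in each library, as log2(CPM + 0.1) in colour with the CPM printed; libraries run from hypoxia KO through hypoxia flox and normoxia KO to normoxia flox. Hypoxia KO 1 has the most Igha (16.1 CPM) with little Ighm, and Ighg2b and Ighg2c stand out in hypoxia KO 4 (7.80 and 5.09 CPM).

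Hypoxia KO 4 also differed from the other libraries in inflammatory genes. It had 29.2 CPM of S100a8 and 49.4 CPM of S100a9, genes of neutrophils and inflammatory monocytes, against at most 1.02 and 2.59 CPM in the other 17 libraries. It had 13.0 CPM of Ccl5 and 16.5 CPM of Cxcl9, chemokines that attract T cells, against at most 3.83 and 2.19 CPM elsewhere. S100a8 and S100a9 were named after their values were seen, and the part of these cells in the lymphocyte results was not tested.

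Wider lists hold none of the 9 genes above. Of 28 T cell genes 19 were tested, of which 11 rose in KO relative to flox in hypoxia and 2 in normoxia (Zap70 and Icos), with medians of 1.88 and 0.58. The 2 of 19 in normoxia are a share close to that of all tested genes (9.54%), and 14 of the 19 had a positive value. Of 20 NK and cytotoxic genes 8 were tested, of which 7 rose in hypoxia and 3 in normoxia, with medians of 2.96 and 1.67. Of 27 B cell and plasma cell genes 19 were tested, of which 13 rose in hypoxia and 7 in normoxia, with medians of 1.73 and 1.60. Of all tested genes 11.4% rose in hypoxia and 9.54% in normoxia. All tested cytotoxic and B cell list genes had a positive value in both conditions, and no gene of the 3 lists passed in the other direction. How many of the list genes passed the filter on low counts only through KO libraries was not examined. These counts and medians may thus not be independent of the filter. In hypoxia Cd28, the costimulatory receptor of T cells, rose by 3.50 ± 0.72 (adjusted p = 0.0018). Icos, another costimulatory receptor, rose by 2.76 ± 0.63 in hypoxia (adjusted p = 0.0037) and by 2.82 ± 0.90 in normoxia (adjusted p = 0.0351), the normoxia call being lost in 7 of the 18 fits that left out 1 library and with each replicate block (adjusted p of 0.0651 to 0.197). The NK receptor gene Klrk1 rose by 4.16 ± 0.79 in hypoxia (adjusted p = 0.00064) and by 2.45 ± 0.82 in normoxia (adjusted p = 0.0423), the normoxia call being lost in 11 of the 18 such fits and with each replicate block (adjusted p of 0.0876 to 0.206). Pax5 rose by 3.05 ± 0.73 in normoxia (adjusted p = 0.0088, but 0.170 with the block over pairs 1, 2 and 4), and Fcrla, an Fc receptor-like gene of B cells, by 3.16 ± 0.72 in hypoxia (adjusted p = 0.0041). With the pan-leukocyte score as a covariate, none of these calls of Cd28, Icos, Klrk1, Pax5 and Fcrla held (adjusted p of 0.121 to 0.840).

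The smallest adjusted p in the T cell and cytotoxic lists belonged to genes that did not follow the Cd3 chains. Zap70, the kinase that binds the phosphorylated CD3 chains, had 71.9 to 88.4 CPM in hypoxia KO, 29.0 to 34.2 in hypoxia flox, 75.4 to 93.7 in normoxia KO and 20.1 to 24.0 in normoxia flox. It rose by 1.35 ± 0.09 in hypoxia and by 1.86 ± 0.09 in normoxia, with no overlap. Ctsw, cathepsin W of cytotoxic lymphocytes, had 19.7 to 26.9 CPM in hypoxia KO, 6.75 to 10.4 in hypoxia flox, 13.9 to 18.6 in normoxia KO and 2.82 to 4.60 in normoxia flox. Both genes also rose with hypoxia in flox libraries, a call that held in all 33 alternatives. There the log2 fold change was 0.428 to 0.551 for Zap70 and 1.049 to 1.482 for Ctsw. Between the KO groups neither passed in the main fit. Within the groups Zap70 correlated with Cd3g at r = -0.55 and Ctsw with Cd3g at r = -0.34, and with the pan-leukocyte score as a covariate both still passed in hypoxia and normoxia. Hypoxia KO 1 and normoxia KO 4 and 6, the KO libraries with the least Ptprc, had the 3 highest Zap70 values of all 18 libraries.

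Of 15 myeloid genes tested, 6 rose, 1 fell and 8 did not pass in KO relative to flox in hypoxia, where 11.4% of all tested genes rose, and 2 rose and 1 fell in normoxia. Lyz2, lysozyme of macrophages and granulocytes, rose by 3.30 ± 0.56 in hypoxia (adjusted p = 0.00073) and by 2.10 ± 0.53 in normoxia (adjusted p = 0.0128). Cd163, a receptor of perivascular macrophages, fell by 1.19 on the log2 scale in hypoxia (SE 0.33, adjusted p = 0.0158) and by 1.25 in normoxia (SE 0.30, adjusted p = 0.0089). Summed over 6 erythroid genes the level was 2609 to 8008 CPM in hypoxia KO, 3542 to 4830 in hypoxia flox, 1161 to 5019 in normoxia KO and 1361 to 2730 in normoxia flox, and none of the 5 tested passed. With the erythroid score as a covariate, 7 of the 8 lymphocyte genes passed in hypoxia and 5 in normoxia. Of 13 genes for lymphocyte recruitment that were tested, 3 rose in hypoxia (Cx3cl1, Cxcl9 and Cxcl16) and none in normoxia by edgeR.

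None of the 8 genes passed edgeR's test for oxygen, which does not show that they were unchanged. In KO all 8 had a positive value, with a median of 0.87 beside -0.03 over all tested genes. In flox 7 of the 8 were positive, with a median of 0.58 beside -0.03. Between hypoxia flox and normoxia flox, 0 of 8 rose (2.34% of all tested genes did), and 0 of 8 had an unadjusted p under 0.05. Between hypoxia KO and normoxia KO, 0 of 8 rose (0.713% of all tested genes did), and 3 had an unadjusted p under 0.05. These were Cd3g at 1.85 ± 0.61 (adjusted p = 0.154), Nkg7 at 1.83 ± 0.72 (adjusted p = 0.249) and Gzma at 1.37 ± 0.52 (adjusted p = 0.244). Their 95% intervals were 0.65 to 3.04, 0.41 to 3.25 and 0.35 to 2.39. Cd3g passed without hypoxia KO 1, at 2.13 (adjusted p = 0.0348). Mean Cd2 was level between the KO groups, at 2.13 ± 0.61 CPM in hypoxia and 2.11 ± 0.26 CPM in normoxia (SD, n = 5 each). The log2 difference of Cd2 was 0.02 with a 95% interval of -0.55 to 0.60, which is unreliable for an estimate this near 0. DESeq2 and limma on RPKM likewise called 0 members for oxygen. In KO, however, DESeq2 gave an adjusted p to only 6 members. Cd3e, Cd3g and Nkg7 had none there, so its 0 does not cover them.

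The genotype difference was not shown to depend on oxygen. In the interaction contrast (KO minus flox in hypoxia, minus the same in normoxia) 0 of 8 genes passed, none with an unadjusted p under 0.05, while 0.439% of all tested genes passed. DESeq2 and limma called 0, but DESeq2 gave no adjusted p to Cd3e and Cd3g here. The values of the cytotoxic genes were the highest, at 1.73 ± 1.09 for Gzma (adjusted p = 0.993) and 1.82 ± 2.15 for Nkg7 (adjusted p = 0.993). Cd2 had the lowest value, -0.51 ± 0.57 (adjusted p = 0.993). That 8 genes passed in hypoxia and 5 in normoxia is therefore not a tested difference between the conditions.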

How the data were processed

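The 18 libraries of mouse brain endothelial RNA were made with a stranded mRNA kit. Per the submitters' processing notes, HISAT2, edgeR and GRCm39 were used; versions, counting tool and strand setting are not given in the sources used here. The deposited whole-number counts cover 57010 Ensembl genes. The deposited RPKM have 1 decimal and served for levels between genes and for the limma alternative. Symbols came from the annotation tables and covered 91.3% of the identifiers.

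In R 4.3.3, edgeR 4.0.16 was used with TMM scaling, filterByExpr (17531 genes kept), 1 model of the 4 groups over all 18 libraries, robust dispersions and the quasi-likelihood test, with Benjamini-Hochberg adjustment and a threshold of 0.05. CPM use the TMM-scaled totals; log2 CPM have a prior count of 2. Each SE is the estimate over the root of its F statistic, so it is unreliable for estimates near 0; intervals are 1.96 SE either side. Alternatives used limma 3.58.1, DESeq2 1.42.0, other filters, covariates, replicate blocks and left-out libraries. The fit was tested on simulated data. Depth was 17.9 to 31.2 M counts per library, and counting error is large for members with few counts.

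The members, gene lists and tests were chosen with earlier results of these data known. Named were the 9 members, Pdcd10, Pecam1, Cldn5, Ptprc, genes that move with a result, up to 4 passing genes per list and comparison with the smallest adjusted p, and the 8 genes most like the T cell and the B cell members (unnamed gene models left out); the text prints a selection, and some are not reported here. The main fit has no pairing. Deviations from the group means correlated, across genes, at r of 0.579, 0.294 and 0.847 for normoxia pairs 1, 2 and 4. Equal numbers were therefore taken as pairs in normoxia, but only in alternative fits. Unequal numbers reached as much (0.707 for KO 6 with flox 3, 0.55 for KO 2 with flox 1), and pair 4 holds the libraries with neuronal RNA. The labels do not say what libraries of equal number share.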

Additional observations from a re-analysis of the deposited data

Results flagged for a closer look

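Among 36 sets of CPM values (9 genes in 4 groups), 4 had a library far from the rest of its group by Dixon's criterion, which chance alone flags in about 1 of 20 sets. Nkg7 was 5.09 CPM in hypoxia KO 4, against 0.108 to 0.754 CPM in the other 4 hypoxia KO libraries. Cd2 was 1.08 CPM in hypoxia KO 1, against 2.24 to 2.62 CPM in the other 4. Cd3e was 0.168 CPM (4 counts) in hypoxia flox 2, against 0.0456 to 0.0495 CPM (1 count each) in the other 3 hypoxia flox libraries. Cd3e was 0.234 CPM (5 counts) in normoxia flox 2, and 0 in the other 3 normoxia flox libraries. Both Cd3e values rest on few counts.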

How the results depend on the processing

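No member fell in any of the alternatives run, and for oxygen in flox and the interaction none rose. In normoxia 5 members rose; the count was 3 with no filter on low counts, 1 with the pan-leukocyte covariate, 2 without the 3 libraries of mixed sex signal, 2 with the replicate block over pairs 1, 2 and 4, and 2 with that block and the hypoxia libraries kept in the fit (chosen after the data were seen, as was leaving out hypoxia KO 1 and 4 together). In hypoxia 8 rose; the count was 5 with the immediate early covariate and 0 with the pan-leukocyte covariate, where the log2 fold changes of Cd3g (-1.485), Nkg7 (-1.562) and Gzmb (-0.957) turned negative without passing. DESeq2 also gave 8, with Cd3e in (adjusted p = 0.0464) and Cd3g out (adjusted p = 0.0609). For oxygen in KO, 1 member rose with the immediate early covariate, Cd3g. Leaving out 1 library at a time gave 2 to 5 members in normoxia, 5 to 8 in hypoxia and 0 to 1 for oxygen in KO.

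Over all genes, 2905 were called for genotype in normoxia; the count was 1911 with only the 2 groups compared, 1791 with the replicate block over all groups, 717 with the block over the normoxia pairs and 1759 with the hypoxia libraries kept. In hypoxia 3916 were called, and 958 with the pan-leukocyte covariate. For oxygen in flox 492 were called, 808 by DESeq2, 309 with only the 2 groups and 951 with the immediate early covariate. For oxygen in KO 260 were called, 613 by DESeq2, 101 with only the 2 groups, 43 with the block over all groups, and 542, 13 and 112 with the immediate early, erythroid and pan-leukocyte covariates; leaving out 1 library gave 53 to 521. For the interaction 77 were called, 149 by DESeq2, 3 with the block over all groups and 38 without hypoxia KO 1 and 4; leaving out 1 library gave 28 to 99. The causes were not tested. Hypoxia numbers did not pair the libraries (r of 0.158, 0.0403, -0.183 and -0.339 for pairs 2 to 5), and with them as a block 7 members rose. That block was fitted to hypoxia libraries alone and gives no other member count. The replicate block over all groups left the member counts of all comparisons as they were. Low counts limit Cd3e, Cd3g and Nkg7 most.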
